A study of Camelina sativa with 159 samples.

Results

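The genes described here lie around 6 single nucleotide polymorphisms (SNPs) that the study used, with 4 others, to divide accessions of the oilseed *Camelina sativa* into haplotypes of early and late flowering. They were taken by position around these SNPs, which the study had selected with the flowering time of the same accessions. A gene model is a member if its locus number lies within 200 of that of Csa06g036830, Csa08g057320, Csa09g081420, Csa11g040110, Csa14g006410 or Csa20g025800, the genes to which the study assigned the SNPs, which takes in about 20 loci on each side because locus numbers run in steps of 10. This gave 246 of the 94495 gene models in the count table, at 232 loci. A locus with several transcripts has several gene models, which was the case at 14 of the loci, and the suffix after the locus number names the transcript.

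Leaf RNA of young seedlings was sequenced from 48 accessions, and the deposited values are raw counts of reads per gene model. The plants for RNA were raised in a greenhouse under the same light regime, with no treatment named. Flowering time (FT), in days, is a value of each accession in the labels, and by the study's methods it was scored in field plots and not on the sequenced plants. The 4 late accessions are CN 113662 (FT of 52 days), CN 113692 (55 days), CN 113691 (59.4 days) and CN 113660 (61.9 days), and their values are given in that order below. The 44 early accessions flowered at 43 to 47.9 days. Libraries of the same accession were added together, which leaves the accession as the unit of replication, and levels are counts per 1000000 counts (CPM) after scaling by the trimmed mean of M-values (TMM). The study's methods call the libraries of an accession biological replicates, the labels do not say which plants they came from, and the p-values measure the spread between accessions.

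The 158 libraries held 167 to 15246389 counts each, and the sums per accession ran from 4968195 to 30119735, with CN 113692 the lowest. CN 113692 has a library of 4321479 counts (Cs007) and one of 646716 (Cs008), so its levels follow the former. At the depth of CN 113692 a gene at 0.2 CPM is represented by a single read. The library codes fall into 3 series, and all 11 late libraries belong to the series with the prefix Cs, in which 34 of the early accessions also have libraries, so values within that series are given where they end a call. Among 148 libraries with at least 200000 counts, 11 correlated better with another accession than with the other libraries of their own, by more than 0.1 in Pearson's r. The only late library among them was Cs040 of CN 113662, with an r of 0.68 to its own accession and 0.79 to the early accession CN 113672. The converse held for S001C2D, labelled CN 113672, with 0.65 to its own accession and 0.80 to CN 113662, and Cs147 of CN 113662 was also nearer to CN 113672 (0.72 against 0.66). The labels were kept, and each value of CN 113662 rests on them. Of the members, 26 were called without those 11 libraries, against 25 with them.

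In a collection of accessions, alleles of neighbouring genes are often inherited together, a state called linkage disequilibrium. A SNP can mark such a stretch of chromosome and need not alter the gene it lies in, which is why neighbours of the SNP genes are of interest. The study's haplotypes are not such stretches. They are patterns of SNPs on several chromosomes, which the study calls distributed. All windows are compared over the same few late accessions, so they are not separate observations. *C. sativa* is an allohexaploid, so most genes have near-identical copies on other chromosomes, and reads that fit several copies cannot always be told apart. The SNPs were selected by the study for their association with FT, and with the expression of a set of co-expressed genes, in these same accessions. Differences between late and early accessions at these loci are therefore not independent evidence of a link with FT.

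The study's SNP annotation lists 22 members, 19 of them with a named protein after an Arabidopsis counterpart, and the other 224 carry an identifier only. The 6 genes with a SNP encode the aquaporin NIP2.1 (Csa06g036830), the sorting nexin SNX2b of the endosomal sorting machinery (Csa08g057320), a 12-oxophytodienoic acid (OPDA) reductase of a family that includes an enzyme of jasmonate synthesis (Csa09g081420), phytoene desaturase of carotenoid synthesis (Csa11g040110), a membrane peptidase of the M50 family (Csa14g006410) and a phosphate translocator family member (Csa20g025800). Their neighbours include a laccase, the transcription factor WRKY26, the wall acetylation gene RWA3, a chlorophyll a/b-binding protein of photosystem II and KAO1 of gibberellin synthesis.

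Of the 246 members, 58.9% passed the filter on low counts and were tested. Of those that did not pass, 40 had no read in any library and 61 had reads, the highest with 266 in all libraries together. By window, 25 of 45 gene models were tested around Csa06g036830, 25 of 42 around Csa08g057320, 23 of 38 around Csa09g081420, 15 of 35 around Csa11g040110, 29 of 43 around Csa14g006410 and 28 of 43 around Csa20g025800. The tested members are those with enough reads in leaf and do not stand for all members.

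Levels of 25 of the tested members differed between the 4 late and the 44 early accessions, 13 being higher and 12 lower in the late accessions, at a Benjamini-Hochberg adjusted p under 0.05 over all gene models tested (edgeR quasi-likelihood test). The laccase gene Csa08g057310.1 showed the largest rise, with a log2 fold change of 1.98, and Csa08g057240.1 the deepest fall, with -3.81. Over all 52307 gene models tested, 14.3% were called, 3140 gene models as higher and 4329 as lower. The share among the members was 17.2%, close to that background in this fit. With the Cs libraries alone, the series of all late libraries, 20 of 130 tested members were called. The background there was 7.03%, so the member share lay farther above it. Whether the shares differ was not tested. The median log2 fold change of the tested members was 0.03, against -0.01 over all gene models tested, and the median of its absolute size was 0.28 against 0.24. At an unadjusted p under 0.05 the shares were 30.3% of the members and 29.2% of all gene models. In bulk leaf RNA, fewer cells of a type and less RNA per cell cannot be told apart, and this applies to each difference given here.

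The share called was uneven between the windows. Around Csa08g057320, 6 members were higher and 1 was lower, or 28% of those tested, against 13.5% on the rest of chromosome 8. Around Csa20g025800, 2 were higher and 6 lower, or 28.6%, against 13.6% on the rest of chromosome 20. The other windows had 1 higher and 3 lower around Csa06g036830 (16%), 2 higher around Csa09g081420 (8.70%), 1 lower around Csa11g040110 (6.67%) and 2 higher and 1 lower around Csa14g006410 (10.3%), where the rest of each chromosome had 13% to 15.4%. Counting members that did not pass as well, 19 of the 25 tested near Csa08g057320 had a log2 fold change above 0 and 19 of 28 near Csa20g025800 had one below 0. These counts are descriptions, and the difference between windows was not tested.

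**Figure D1:**
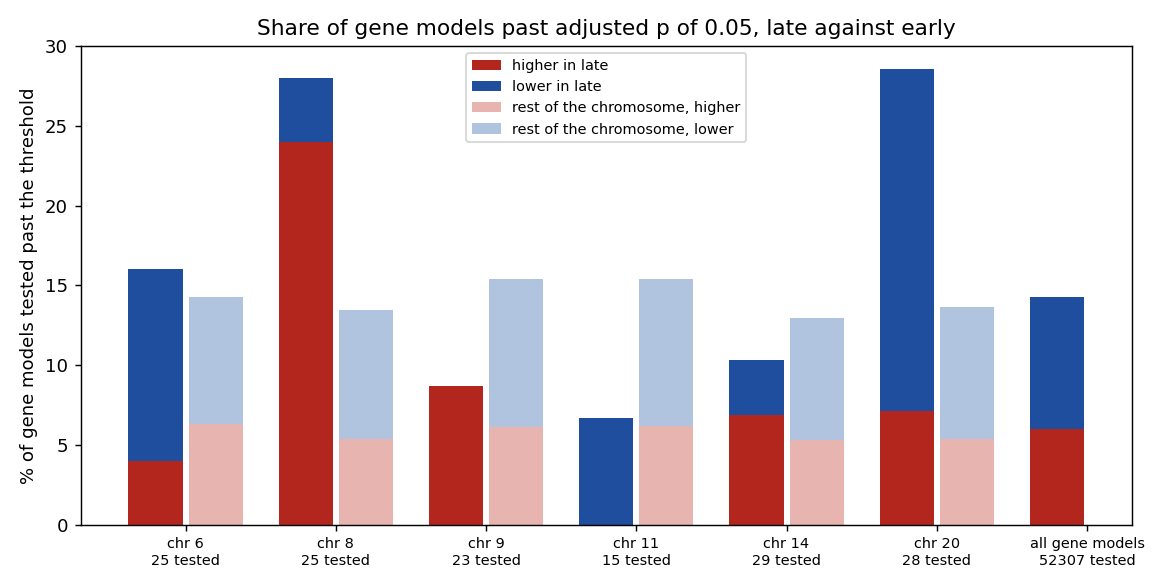
Share of tested gene models (vertical axis, percent) past an adjusted p of 0.05 in late against early accessions, for each window and for the rest of its chromosome, with higher (red) and lower (blue) stacked and all gene models at the right. The chromosome 8 window reaches 28% and is mostly higher, the chromosome 20 window reaches 28.6% and is mostly lower, and all gene models together stand at 14.3%.

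Distance from the SNP gene was not a clear guide to which members differed. Of the members at 10 to 50 locus numbers from a SNP gene 9 of 39 were called (23.1%), at 60 to 100 they were 5 of 37 (13.5%), and at 110 to 200 they were 10 of 64 (15.6%). Over all gene models tested the share was 14.3%. Consecutive tested gene models with calls in the same direction formed 4 runs, of which the longest held 3 gene models. These were Csa08g057260.1, Csa08g057290.1 and Csa08g057310.1, all higher, and Csa20g025960.1, Csa20g025970.1 and Csa20g025990.1, all lower. The shorter runs were Csa20g025880.1 with Csa20g025900.1, and both transcripts of Csa06g036790, all lower. The latter is a single locus whose transcripts may share reads. How often such runs occur over the whole table was not counted.

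**Figure D2:**
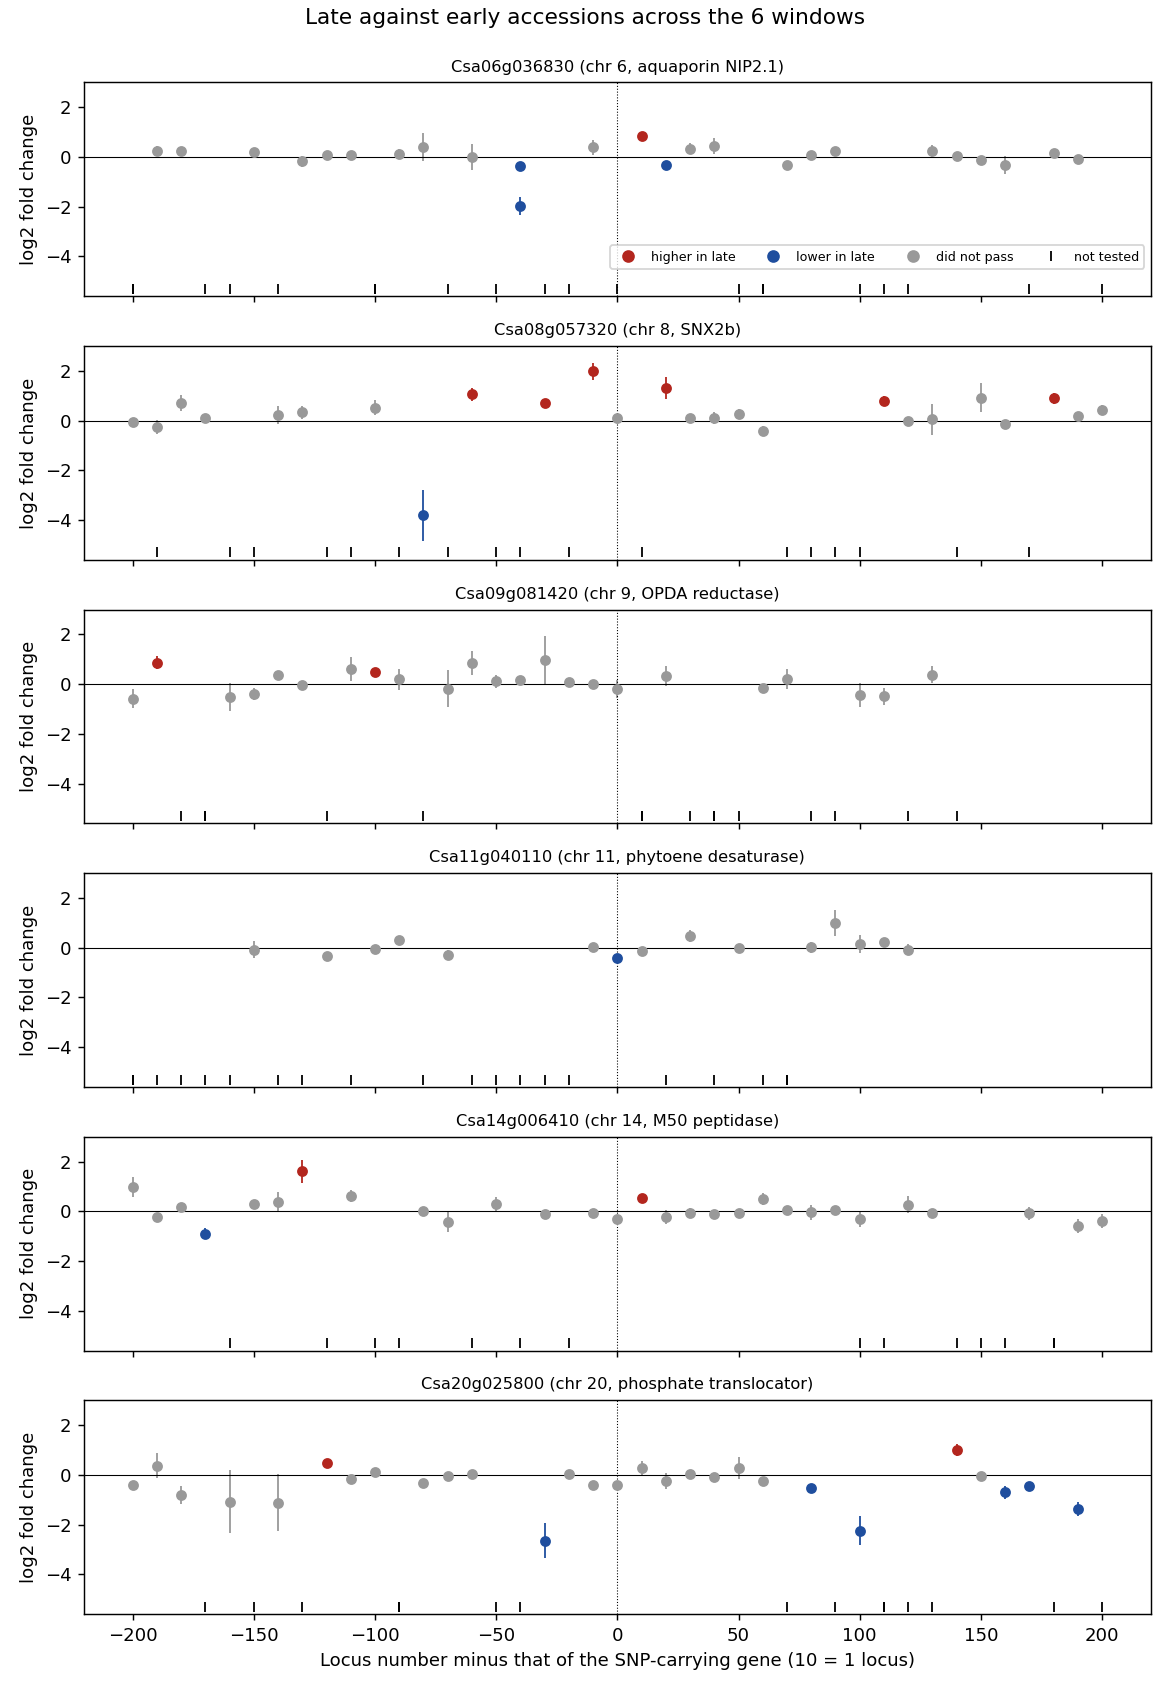
Log2 fold change of each tested member in late (n = 4) against early (n = 44) accessions (vertical axis) by locus number relative to the SNP gene (horizontal axis, 10 being 1 locus), with bars of 1 standard error and ticks at the base for members that were not tested. Red points are higher and blue points lower at an adjusted p under 0.05, and the values run from -3.81 to 1.98.

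Among the 6 genes with a SNP, phytoene desaturase alone passed the test between late and early accessions, Csa06g036830.1 being too low to test. Csa11g040110.1, which encodes this early enzyme of carotenoid synthesis, stood at 43.7, 32.6, 46.9 and 50.7 CPM in the late accessions and at 50.8 to 75.6 CPM (median 56.5) in the early accessions. All 4 late accessions lay below the lowest early accession, CN 113660 only just so. The means were 43.5 ± 7.81 CPM (SD, n = 4) and 57.9 ± 5.07 CPM (SD, n = 44), and the log2 fold change was -0.41 (SE 0.08, adjusted p = 0.000328, edgeR). It was the only tested member whose groups did not overlap, where 0.526% of all gene models tested had groups that did not overlap. Within the Cs libraries the ranges did overlap, at 32.3 to 49.2 CPM in late and 43.8 to 78.4 CPM in early accessions, and the log2 fold change was -0.42 (adjusted p = 0.0188). The call was kept without each late accession in turn, with log2 fold changes from -0.49 to -0.30.

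OPDA reductase divided the late accessions. Csa09g081420.1 stood at 121.3 and 94.3 CPM in CN 113662 and CN 113692 and at 27.3 and 17.3 CPM in CN 113691 and CN 113660, against 32.8 to 189 CPM (median 64.5) in the early accessions. The libraries of CN 113692 were far apart, Cs007 with 467 reads and Cs008 with 5, or 7.73 CPM by library total, so its high value comes from Cs007 alone. The 2 latest accessions were thus below every early accession, and the 2 that flowered at 52 and 55 days were above the early median. The pooled contrast of late and early had a log2 fold change of -0.18 (SE 0.36, adjusted p = 0.78), while the 2 latest against early gave -1.72 (SE 0.52, adjusted p = 0.039). The direct contrast of the 2 latest with the 2 others gave -2.27 (adjusted p = 0.13, edgeR), or -2.29 with an adjusted p of 0.035 in DESeq2. The call of the 2 latest against early was lost within the Cs libraries (-1.58, adjusted p = 0.17, edgeR), where the lowest early accession was at 17 CPM. It was also lost with the share of Cs counts as a covariate (-1.36, adjusted p = 0.11). Without the libraries that resembled another accession it was lost as well (-1.68, adjusted p = 0.071). Nor was it kept without CN 113660 (log2 fold change -1.43) or CN 113691 (-2.09), where a single accession is left.

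The phosphate translocator and the M50 peptidase were below the early median in each late accession without passing the test. Csa20g025800.1 stood at 15.4, 23.6, 15.4 and 17.2 CPM in the late accessions against 14.6 to 28.9 CPM (median 24.1) in the early accessions, with a log2 fold change of -0.39 (SE 0.14, adjusted p = 0.057). Csa14g006410.1 stood at 11.2, 12, 12.9 and 12.7 CPM against 10.2 to 21.3 CPM (median 15.3), with a log2 fold change of -0.31 (SE 0.13, adjusted p = 0.090). The ranges overlapped in both genes, and for the translocator CN 113692 was close to the early median. Within the Cs libraries both passed the test, with -0.57 (adjusted p = 0.040) for the translocator and -0.44 (adjusted p = 0.048) for the peptidase.

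SNX2b and NIP2.1 did not separate the groups. Csa08g057320.1 (SNX2b) stood at 12.5, 14, 9.44 and 7.03 CPM against 7.10 to 12.4 CPM (median 10.1), with a log2 fold change of 0.08 (SE 0.11, adjusted p = 0.66). The late accessions spanned the whole early range, CN 113662 and CN 113692 above its top and CN 113660 below its bottom, and the difference between the 2 pairs of late accessions was -0.68 on the log2 scale (adjusted p = 0.13). Csa06g036830.1 (NIP2.1) had 39 reads in all libraries, with 0.0747, 0, 0.152 and 0 CPM in the late accessions and at most 0.282 CPM in an early accession, and was not tested.

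**Figure D3:**
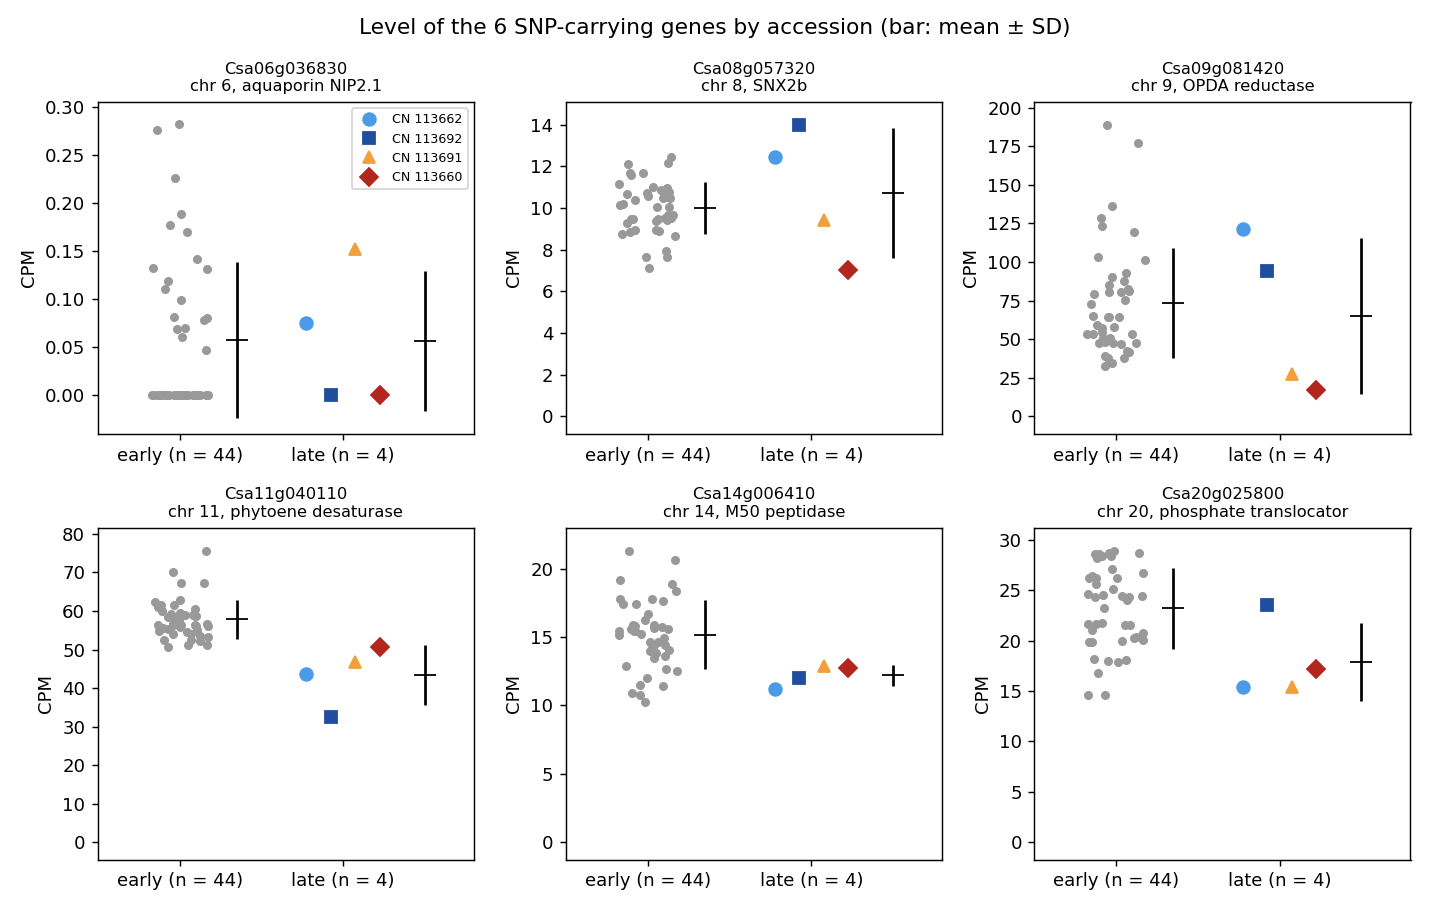
Level in CPM (vertical axes, from 0) of the 6 genes with a SNP in 44 early accessions (grey) and the 4 late accessions (symbols), with bars for mean ± SD. Phytoene desaturase lies lower in all 4 late accessions, at 32.6 to 50.7 CPM, and OPDA reductase divides them into 94.3 and 121.3 CPM against 17.3 and 27.3 CPM.

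Of the 22 members in the SNP annotation, 17 were tested, 4 of which were higher and 2 lower in the late accessions, or 35.3%. The share was 14.8% of the tested members outside the annotation and 14.3% of all gene models tested. By role, 1 of 4 tested plastid and photosynthesis genes was called (lower), neither of the hormone genes, neither of the tested transport and trafficking genes, both cell wall genes (1 higher, 1 lower), 2 of 3 tested regulatory genes (higher) and 1 of the 3 genes of RNA, cytoskeleton and stress (higher). The annotated genes lie next to the SNPs, and the groups are too small to compare.

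In the window of Csa06g036830 on chromosome 6, the calls lay close to the SNP gene. Its neighbour Csa06g036840.1, which encodes a pentatricopeptide repeat protein of a family that binds organelle RNA, was higher in the late accessions. It stood at 2.17, 3.0, 3.73 and 3.34 CPM against 0.831 to 2.51 CPM (median 1.74), with a log2 fold change of 0.83 (SE 0.17, adjusted p = 0.000914). The values of CN 113692, CN 113691 and CN 113660 exceeded every early accession, and this call of late against early was kept in every setting tried. The next gene, Csa06g036850.1 (RWA3, a gene of wall polysaccharide acetylation in Arabidopsis), was lower, at 16.5, 16.6, 16.7 and 17.5 CPM against 16.7 to 25.7 CPM (median 21). Its log2 fold change was -0.33 (SE 0.08, adjusted p = 0.0046), the late accessions differed little from each other, and within the Cs libraries the call was lost (-0.28, adjusted p = 0.11).

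The third neighbour on that side encodes a chlorophyll a/b-binding protein, an abundant leaf protein of the light-harvesting antenna. Csa06g036860.1 stood at 1844, 1372.7, 2035 and 2043 CPM against 727 to 3015 CPM (median 1453), and its log2 fold change of 0.34 (SE 0.24) did not pass the test (adjusted p = 0.36). It was read in all 48 accessions, whose samples are all labelled as leaves.

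Both transcripts of Csa06g036790 were lower in the late accessions, though by unlike amounts. The second, Csa06g036790.2, stood at 0.822, 0.200, 0.228 and 0.139 CPM against 0.543 to 2.59 CPM (median 1.43), or 11, 1, 3 and 2 reads. CN 113692, CN 113691 and CN 113660 were below every early accession and CN 113662 was within their range, and the log2 fold change was -1.97 (SE 0.36, adjusted p = 0.00019). The first transcript, Csa06g036790.1, stood at 12.9, 13.4, 13.7 and 13.1 CPM against 12 to 21.5 CPM (median 17.1), with a log2 fold change of -0.35 (SE 0.11, adjusted p = 0.033). That call was lost without any of the late accessions (adjusted p from 0.066 to 0.097) and within the Cs libraries (adjusted p = 0.24). Reads shared by the transcripts of a locus may be divided between them by the counting, so the difference between the transcripts is uncertain.

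A gene model in the same window was read in late accessions and in no early library. Csa06g036810.1, at 20 locus numbers from Csa06g036830, had 2, 3, 5 and 3 reads in the late accessions, spread over 8 of the 11 late libraries, and no read in any early library. Its level was 0.274 CPM over the late libraries (95% exact Poisson interval 0.146 to 0.469, counting error only), or 13 reads in 47421435. None was found in the 667846939 early counts, where a floor of 3 counts over the group is 0.00449 CPM, so the late level was at least 32.5-fold higher from the lower end of that interval, or 61-fold from the level itself. The gene model was below the filter and was not tested. Over the whole table, 2 of the 94495 gene models had reads in all 4 late accessions and in no early accession, and 1 had the reverse pattern, which was no member. Cs040, the late library that resembled another accession, was among the 3 late libraries with no read. The gene was named for this pattern, so its values are a description.

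**Figure D4:**
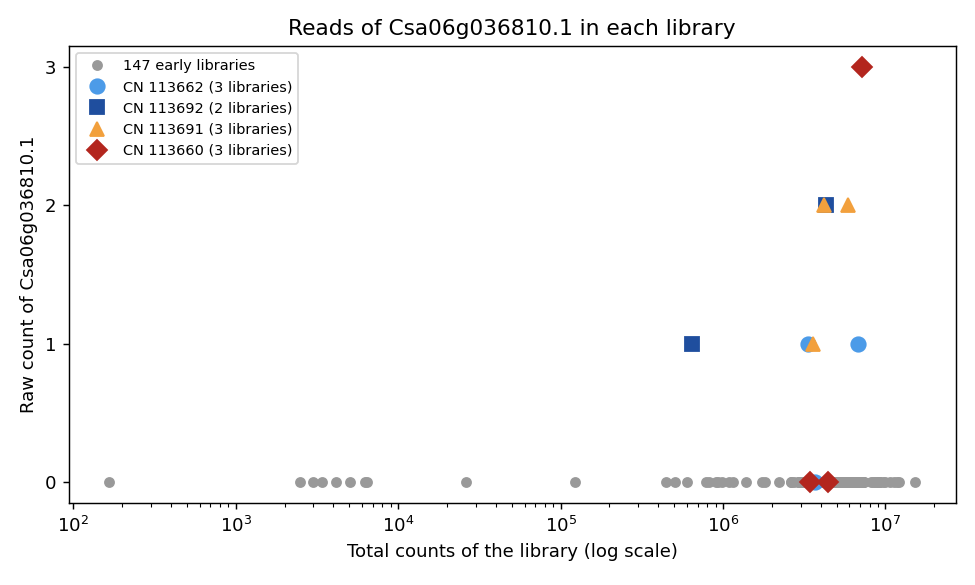
Raw reads of Csa06g036810.1 in each library (vertical axis) against the total counts of the library (horizontal axis, log scale), for the early libraries (grey) and 11 late libraries (symbols by accession). All early libraries lie at 0, including those with more counts than any late library, and 8 late libraries hold 1 to 3 reads.

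The window of Csa08g057320 on chromosome 8 held 6 members that were higher and 1 that was lower. The laccase gene Csa08g057310.1, next to the SNP gene, encodes a copper oxidase of the family that polymerises lignin. It stood at 1.20, 2.40, 1.14 and 3.96 CPM in the late accessions, or 16, 12, 15 and 57 reads, against 0.0772 to 1.53 CPM (median 0.542) in the early accessions. All 4 were above the early median and CN 113692 and CN 113660 above every early accession. The log2 fold change was 1.98 (SE 0.34, adjusted p = 6.16e-05), and it stayed between 1.46 and 2.20 without each late accession in turn, past the threshold each time. Libraries of an accession were not alike, the 3 of CN 113662 holding 11, 1 and 4 reads, with the 1 read in Cs040.

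Csa08g057340.1, on the other side of the SNP gene, encodes WRKY26, a transcription factor linked in Arabidopsis to the heat response. Its level was 6.72, 3.40, 2.28 and 2.02 CPM against 0.283 to 4.92 CPM (median 1.10), all late accessions being above the early median and CN 113662 above all early accessions. In CN 113662 the libraries were apart, Cs035 at 11.5 CPM by library total against 4.09 in Cs040 and 5.45 in Cs147. The log2 fold change was 1.31 (SE 0.45, adjusted p = 0.043). The call was lost without any of the late accessions, with adjusted p-values from 0.051 without CN 113660 to 0.38 without CN 113662 (log2 fold change 0.79), and with DESeq2 (adjusted p = 0.057).

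Between and beyond these genes lay members without annotation. Csa08g057290.1 followed the earlier pair of late accessions, at 19.3, 28.4, 12.2 and 8.56 CPM against 6.10 to 17.4 CPM (median 10.5). CN 113662 and CN 113692 exceeded every early accession and CN 113660 was below the early median. The log2 fold change over all late accessions was 0.70 (SE 0.17, adjusted p = 0.0046), and it was 0.36 (adjusted p = 0.22) without CN 113692. The contrast of CN 113662 and CN 113692 with the early accessions gave 1.19 (adjusted p = 0.000122), the direct contrast of the 2 latest with these 2 gave -1.19 (adjusted p = 0.087), and the latter was called in DESeq2 (-1.20, adjusted p = 0.025).

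Csa08g057260.1 stood at 1.42, 1.60, 1.37 and 2.99 CPM against 0.222 to 2.11 CPM (median 0.821), with a log2 fold change of 1.05 (SE 0.26, adjusted p = 0.0047). All late accessions were above the early median, and without CN 113660 the value was 0.69 (adjusted p = 0.16). The 3 libraries of CN 113662 held 1, 0 and 18 reads. Csa08g057430.1 stood at 7.02, 15.8, 12 and 15.3 CPM against 4.44 to 10.8 CPM (median 7.12), with a log2 fold change of 0.79 (SE 0.17, adjusted p = 0.0015). The 3 later of the late accessions exceeded every early accession, and CN 113662 was at the early median. Within the Cs libraries, where the early accessions reached 17.5 CPM, the call was lost (0.53, adjusted p = 0.17).

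Csa08g057500.1, near the edge of the window, stood at 15.5, 11.8, 6.77 and 13.3 CPM against 3.27 to 12.6 CPM (median 5.73). All were above the early median and CN 113662 and CN 113660 above every early accession, with a log2 fold change of 0.89 (SE 0.23, adjusted p = 0.0072) that lost its call without CN 113662 (0.73, adjusted p = 0.065). The single lower member, Csa08g057240.1, had 0, 0, 2 and 2 reads in the late accessions, or at most 0.152 CPM. Early accessions ran from 0 to 3.14 CPM (median 1.20), so late accessions were all at the bottom of a range that also holds early accessions at 0. The fitted log2 fold change was -3.81 (SE 1.03, adjusted p = 0.0096), with a call in every setting tried.

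The annotated kinase gene Csa08g057300.1 and Csa08g057330.1, which encodes the Rab acceptor PRA1.B6 of vesicle trafficking, were too low to test. The kinase gene had 1, 2, 10 and 10 reads in the late accessions and an early median of 0.343 CPM. PRA1.B6 had 8, 0, 1 and 5 reads and an early median of 0.279 CPM. Neither showed late accessions outside the early range.

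Around Csa09g081420 on chromosome 9, levels differed most among the early accessions themselves, and 2 members were higher in the late accessions. The median coefficient of variation over the early accessions was 47.8% for all tested members of this window. In the other windows it ran from 20.35% to 29.99%. These window values include members of few reads. With a mean of at least 1 CPM required, the median was 21.6% over the tested members of all windows. It was 21.3% over the 45709 such gene models in the table. Because of that limit, these medians cannot be compared directly with the window values. Csa09g081230.1 stood at 130, 83.5, 105.6 and 75.2 CPM against 31 to 134.8 CPM (median 43.7), with a log2 fold change of 0.87 (SE 0.27, adjusted p = 0.023). All 4 were above the early median and within the early range, and the call was lost without CN 113662 (adjusted p = 0.12) or CN 113691 (adjusted p = 0.071).

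Csa09g081320.1 stood at 54.9, 32.8, 44.6 and 57.8 CPM against 23 to 58.3 CPM (median 31.8), with a log2 fold change of 0.47 (SE 0.16, adjusted p = 0.045). The late accessions were above the early median and within the early range, and leaving out CN 113660, CN 113662 or CN 113691 gave adjusted p-values of 0.24, 0.16 and 0.075. The nucleotide-sugar transporter gene Csa09g081410.1, next to OPDA reductase, stood at 56.8, 47.5, 49.8 and 42.4 CPM against 31.6 to 76.9 CPM (median 47.8), with a log2 fold change near 0 (adjusted p = 0.99). Both transcripts of Csa09g081430, on the other side, had no read in a late accession and 2 reads in all.

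The largest fitted change in this window was that of Csa09g081390.1, at 0.97 (SE 0.98, adjusted p = 0.54), and it rested on 14, 1, 10 and 7 reads in the late accessions. Neighbouring genes in this window also varied together among the early accessions. Spearman's rho over the 44 accessions was 0.72 between Csa09g081410.1 and Csa09g081420.1 and 0.74 between Csa09g081420.1 and the unannotated Csa09g081440.1, a gene named after its value was seen. The median over the 22 consecutive pairs was 0.17. Over the consecutive pairs of all windows it was 0.05, and over all 51269 such pairs of tested gene models it was 0.04. These correlations are descriptions, since the points share libraries and depth.

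The window of Csa11g040110 on chromosome 11 had the fewest tested members, and phytoene desaturase was the only one called. The RING-type E3 ubiquitin ligase gene Csa11g040100.1, its neighbour, stood at 14, 18.2, 10.3 and 10.2 CPM against 8.84 to 16.5 CPM (median 13.1), with a log2 fold change of 0.01 (adjusted p = 0.97). CN 113692 was above every early accession and the 2 latest were below the early median. Csa11g040200.1 had the largest fitted change, 0.99 (SE 0.51, adjusted p = 0.19), from 199, 7.79, 40.4 and 17.8 CPM against 5.21 to 100.9 CPM (median 22.9). CN 113662 alone was above the early range, and without it the value was -0.58.

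Around Csa14g006410 on chromosome 14, the SNP gene's neighbour Csa14g006420.1, which encodes a calcium-binding tetratricopeptide protein, was higher in the late accessions. It stood at 25.1, 15.2, 19.9 and 18.8 CPM against 9.99 to 23.3 CPM (median 13.4), with a log2 fold change of 0.54 (SE 0.13, adjusted p = 0.0035). All 4 were above the early median and CN 113662 was above every early accession. The call was lost without CN 113662 (0.40, adjusted p = 0.055) and kept within the Cs libraries (0.61, adjusted p = 0.000829). KAO1, the next gene (Csa14g006430.1), encodes an enzyme of gibberellin synthesis, a hormone class that promotes flowering in Arabidopsis. It stood at 34.4, 7.39, 17.2 and 14.7 CPM against 10.04 to 45.9 CPM (median 20.8), with a log2 fold change of -0.23 (SE 0.27, adjusted p = 0.60), and the late accessions ran from below the early range to its upper part.

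Farther away, Csa14g006240.1 was lower, at 2.91, 2.0, 2.13 and 1.53 CPM against 2.38 to 7.32 CPM (median 3.71), 3 of the late accessions being under the early range. Its log2 fold change was -0.90 (SE 0.24, adjusted p = 0.0078), and it was lost without CN 113660 (adjusted p = 0.070) and within the Cs libraries (-0.69, adjusted p = 0.13). Csa14g006280.1 was higher, at 3.73, 6.39, 1.67 and 0.487 CPM against 0.206 to 6.79 CPM (median 0.835). The late value of 0.487 CPM was below the early median and all were within the early range. The level of CN 113662 rests on Cs035, at 8.75 CPM by library total against 2.18 and 1.91 CPM in its other libraries. Its log2 fold change was 1.60 (SE 0.45, adjusted p = 0.012), and it was lost without CN 113662 (adjusted p = 0.068), without CN 113692 (1.04, adjusted p = 0.20) and within the Cs libraries (adjusted p = 0.13).

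The window of Csa20g025800 on chromosome 20 held 6 of the 12 members that were lower. None of the 3 annotated neighbours of the phosphate translocator passed the test. AUG7 (Csa20g025790.1), a subunit of the augmin complex that starts new microtubules, stood at 3.21, 3.0, 3.35 and 2.50 CPM against 2.48 to 6.06 CPM (median 3.98), with a log2 fold change of -0.39 (SE 0.15, adjusted p = 0.074). All late accessions were below the early median. ASG1 (Csa20g025810.1), a gene of the response to abiotic stress, had a log2 fold change of 0.27 (SE 0.31, adjusted p = 0.60), and Csa20g025780.1, listed as a hypothetical protein, one of 0.05 (SE 0.15, adjusted p = 0.87).

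Among the unannotated members of this window, Csa20g025880.1 was lower in the late accessions. It stood at 68.3, 120, 73.7 and 67.9 CPM against 91.3 to 144.7 CPM (median 118.2), with a log2 fold change of -0.53 (SE 0.11, adjusted p = 0.00075). CN 113662, CN 113691 and CN 113660 were below every early accession, and CN 113692 was near the early median. In CN 113692 the 2 libraries held 549 and 53 reads, or 127.04 and 82 CPM by library total, so its value rests mainly on the deeper library. The call was kept in every setting tried.

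Its neighbour Csa20g025900.1 had 4, 2, 0 and 0 reads in the late accessions, against 0 to 1.44 CPM (median 0.644) in the early accessions, of which 1 was at 0. The log2 fold change of all late accessions was -2.24 (SE 0.57, adjusted p = 0.0064), lost without CN 113660 (adjusted p = 0.062) or CN 113691 (adjusted p = 0.053). With no read in the 2 latest, the early mean of 0.678 CPM was at least 6.22-fold higher than a floor of 3 counts over these accessions. Csa20g025770.1, on the near side of the SNP gene, had 4, 0, 2 and 1 reads, or at most 0.299 CPM, against 0.115 to 2.45 CPM (median 0.819). The log2 fold change was -2.64 (SE 0.72, adjusted p = 0.0098), and -2.36 (adjusted p = 0.059) without CN 113660.

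The far run of lower members was led by Csa20g025990.1, at 1.12, 2.0, 0.304 and 0.626 CPM against 1.29 to 4.11 CPM (median 2.20). CN 113692 was within the early range and the other late accessions were below it, and the log2 fold change was -1.38 (SE 0.29, adjusted p = 0.00082), called in every setting. Within the Cs libraries the early accessions reached down to 0.589 CPM, and the late accessions ran from 0.294 to 1.98 CPM. Csa20g025970.1 stood at 9.41, 12.4, 12.7 and 13.9 CPM against 11.7 to 21.8 CPM (median 16.3), with a log2 fold change of -0.43 (SE 0.11, adjusted p = 0.0067). Its late values were all under the early median, and the call was lost without CN 113662 (adjusted p = 0.073). Csa20g025960.1 stood at 1.42, 0.799, 0.304 and 1.25 CPM against 0.883 to 2.61 CPM (median 1.54), with -0.70 (SE 0.24, adjusted p = 0.044). That call was lost without CN 113660, CN 113691 or CN 113692 (adjusted p = 0.050, 0.35 and 0.13), with DESeq2 (0.059) and within the Cs libraries (0.14).

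The window also held 2 members that were higher. Csa20g025940.1, which lies just before the far run, stood at 6.05, 1.20, 1.67 and 2.09 CPM against 0.551 to 2.45 CPM (median 1.35). CN 113662 alone exceeded the early range, in each of its 3 libraries (36, 17 and 28 reads), and the log2 fold change of 1.02 (SE 0.24, adjusted p = 0.0036) was 0.28 (adjusted p = 0.54) without it. Csa20g025680.1 stood at 7.54, 7.59, 8.68 and 11 CPM against 3.98 to 8.85 CPM (median 6.57), with a log2 fold change of 0.47 (SE 0.13, adjusted p = 0.015). Its late values were all above the early median, and the call was lost without CN 113660 (0.33, adjusted p = 0.18) and within the Cs libraries (0.31, adjusted p = 0.28).

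**Figure D5:**
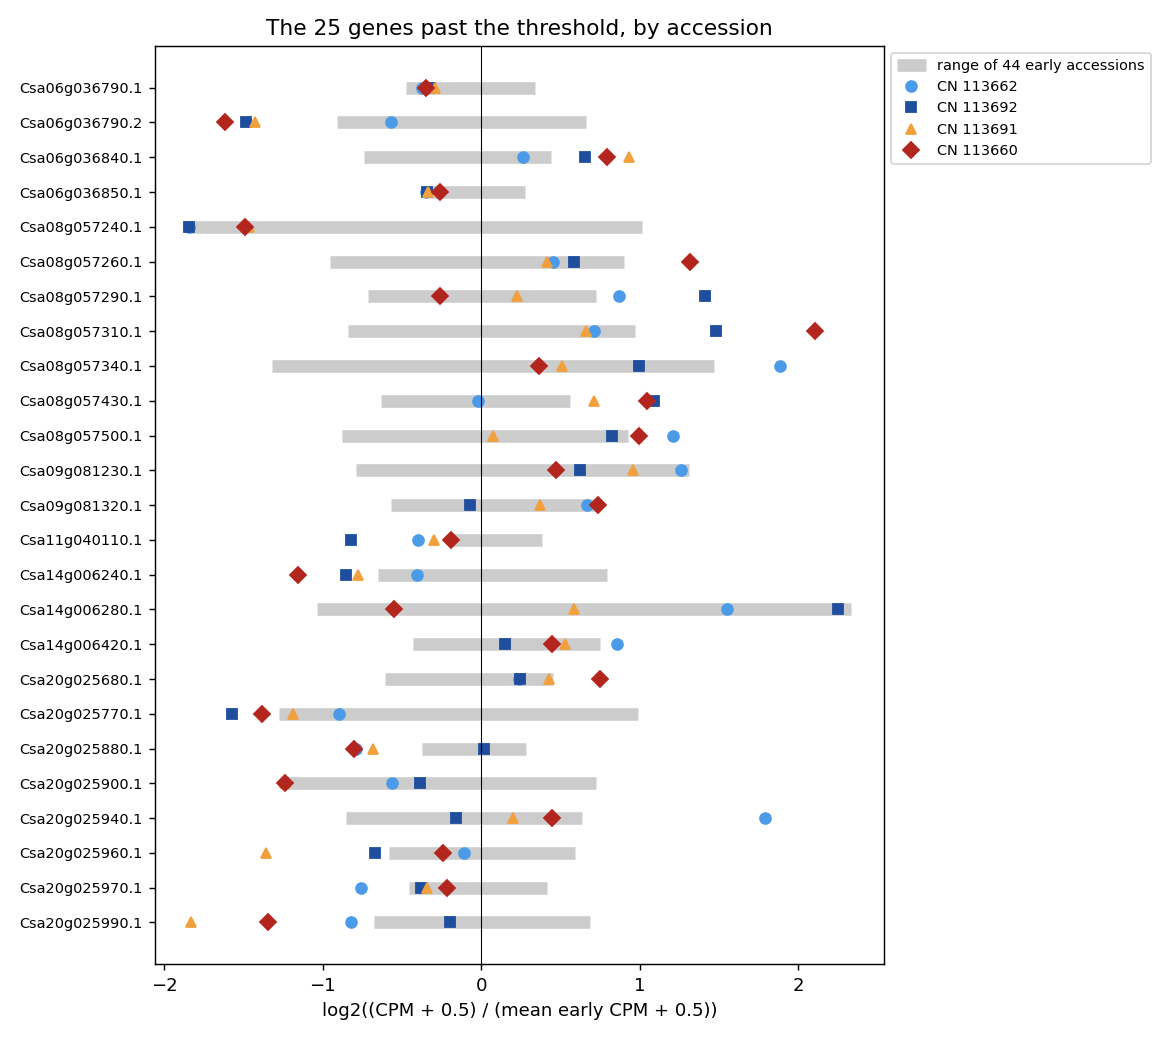
Level of each of the 25 called members in the 4 late accessions (symbols), as the log2 ratio to the mean of the early accessions after adding 0.5 CPM to both (horizontal axis), with grey bars for the range of the 44 early accessions. The late accessions scatter differently from gene to gene, as in Csa20g025940.1 with CN 113662 alone to the right of the bar, and Csa11g040110.1 has all 4 to the left of it.

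Firmness differed among the 25 called members. Of these, 15 were called in every setting other than leaving out a late accession, and 7 were called in all settings, leave-one-out included. The 7 were phytoene desaturase, the pentatricopeptide repeat gene, the laccase, Csa06g036790.2, Csa08g057240.1, Csa20g025880.1 and Csa20g025990.1. With transcripts summed per locus, the value used for Csa06g036790.2 is that of its locus, where most reads belong to Csa06g036790.1. A call was lost in at least 1 leave-one-out fit by 16 members and within the Cs libraries by 7, and none changed direction. With the Cs libraries alone 20 of 130 tested members were called, where the background was 7.03%.

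The late accessions form pairs in the haplotypes of the study, and each pair was set against the early accessions in a fit with 3 groups, with 2 accessions in each late group. For the 2 latest, CN 113691 and CN 113660, 11 members were called, 5 higher and 6 lower, or 7.59% where the background was 5.83%. Without CN 113660 the count was 3, where the background was 1.06%, and with the Cs libraries alone it was 5, where the background was 1.29%. For CN 113662 and CN 113692, 6 members were called, 4 higher and 2 lower, or 4.14% where the background was 4.78%. Without CN 113692 that count was 2, where the background was 0.386%, and it was 11 without the libraries that resembled another accession, where the background was 6.58%.

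The contrasts share their early accessions, so the values are set side by side. Called in the 2 latest were the laccase (log2 fold change 2.22, adjusted p = 0.00065), the pentatricopeptide repeat gene (1.04, adjusted p = 0.0025), Csa20g025990.1 (-2.31, adjusted p = 8.58e-05) and Csa20g025880.1 (-0.75, adjusted p = 0.0010), with Csa06g036790.2, Csa08g057260.1, Csa08g057430.1, OPDA reductase, Csa14g006240.1, Csa20g025680.1 and Csa20g025900.1. Of these, Csa20g025990.1 and Csa20g025900.1 alone were called in every fit that left out a late accession, and the latter was too low to test within the Cs libraries. Within those libraries the calls of the 2 latest were lost by OPDA reductase, the pentatricopeptide repeat gene (1.04, adjusted p = 0.12, edgeR) and Csa08g057260.1 (adjusted p = 0.13). Csa08g057430.1 (0.36), Csa14g006240.1 (0.28) and Csa20g025680.1 (0.34) lost theirs there too. With the share of Cs counts as a covariate, OPDA reductase, Csa08g057430.1 (0.089) and Csa20g025680.1 (0.058) lost the call. Without the libraries that resembled another accession, OPDA reductase, Csa14g006240.1 (0.058) and Csa20g025680.1 (0.053) lost it. Called in the earlier pair were phytoene desaturase (-0.60, adjusted p = 0.000271), Csa14g006280.1 (2.38, adjusted p = 0.0049), Csa20g025940.1 (1.45, adjusted p = 0.0026), Csa20g025970.1 (-0.59, adjusted p = 0.018), Csa08g057500.1 (1.10, adjusted p = 0.029) and Csa08g057290.1, each of which lost its call without CN 113662 or without CN 113692. Of the calls in the earlier pair, those of Csa08g057500.1 (adjusted p = 0.055) and Csa14g006280.1 (0.099) were also lost within the Cs libraries. For the laccase the earlier pair gave 1.65 (adjusted p = 0.052), and for phytoene desaturase the latest pair gave -0.25 (adjusted p = 0.14).

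The difference between the pairs was tested directly. None of the members passed in edgeR, the smallest adjusted p being 0.087, where the background was 0.218%. At an unadjusted p under 0.05 there were 22 members (15.2%, background 9.41%), and DESeq2 called 2, Csa08g057290.1 and Csa09g081420.1, where its background was 0.591%. A gene called in a single pair is thus not shown to differ between the pairs. For phytoene desaturase the difference was 0.35 on the log2 scale (adjusted p = 0.37), and for the laccase 0.57 (adjusted p = 0.89). The call of the laccase in the 2 latest rested on CN 113660 (1.06, adjusted p = 0.64 without it), and that of phytoene desaturase in the earlier pair on CN 113692 (-0.40, adjusted p = 0.22 without it).

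FT also varied among the 44 early accessions, and the slope of each level on FT was tested there. None of the members tested there passed, with a smallest adjusted p of 0.14 (edgeR), where 0.0178% of all gene models did. At an unadjusted p under 0.05 there were 15 members, or 12.8% where the background was 12.7%. For phytoene desaturase the slope was -0.01 on the log2 scale per day (unadjusted p = 0.63), and for the M50 peptidase -0.07 (unadjusted p = 0.017). Without the filter on low counts, where the background was 0.908%, 2 members passed, Csa09g081340.1 with 10 reads in all libraries and Csa09g081440.1, at 0.36 per day (adjusted p = 0.038).

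Among the windows, neighbours that varied together over the early accessions were few. The highest Spearman's rho between consecutive tested gene models was 0.94, between the chlorophyll a/b-binding protein gene Csa06g036860.1 and Csa06g036870.1, followed by 0.93 between Csa20g025640.1 and Csa20g025660.1. The genes beside the annotated ones in these pairs were named after their values were seen. A rho over 0.5 was found in 9.42% of the member pairs and in 5.10% of all pairs in the table. Gene models with similar sequences may share reads, and the part of this in the correlations was not tested.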

How the data were processed

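Leaf libraries of 48 accessions were analysed. Per the submitters' notes reads were trimmed with Trimmomatic 0.32, aligned with STAR 2.7.10a and counted with featureCounts 2.0.1, and the deposited values are raw counts per gene model, neither normalized nor pooled by the authors. The genome build, annotation version and strand setting of the counting are not given in the sources used here, so copies, overlapping and antisense genes are uncertain. The library of Licalla, which has no FT in the labels, was left out.

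Counts were summed per accession and tested with edgeR 4.0.16 in R 4.3.3 (filterByExpr, TMM, glmQLFit, glmQLFTest), with Benjamini-Hochberg adjustment over all gene models tested and a threshold of 0.05. Standard errors are those implied by the test statistic of the fit. Scripts were tested on simulated data. The most alike libraries of an accession had a chi-square of 1.46 per gene model, so none were merged. Precision is limited by depth: intervals and floors of 3 counts cover counting error only.

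Genes were named by rule: the SNP genes, the members in the study's SNP annotation, up to 25 called members, those without overlap between groups, members called in the other contrasts, and the largest fitted change of each window. Members and lists were chosen with earlier results of these data known. Alternatives were DESeq2 1.42.0 and its size factors, no filter, libraries of at least 200000 counts, Cs libraries alone, the Cs share of counts as a covariate, transcripts summed per locus, leaving out each late accession and, added after the data were seen, leaving out libraries that resembled another accession. None of the members was found by identifier in the RefSeq gene table used here, and sequences and coordinates are not given.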

Additional observations from a re-analysis of the deposited data

Results flagged for a closer look

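For 38 named members the 4 late accessions were searched for a value far from the other 3, by Dixon's test at its 95% critical value. If the members were unselected and independent, about 1.9 would be flagged, and 5 were found. The 38 were largely named for their late values and share the same 4 accessions, so these 2 counts cannot be compared. Csa06g036790.2 was at 0.822 CPM in CN 113662, against 0.139 to 0.228 CPM in the other late accessions. Csa11g040200.1 was at 199 CPM in CN 113662, where the others were at 7.79 to 40.4 CPM, and its libraries ran from 30.2 to 292 CPM by library total. Csa20g025880.1 was at 120 CPM in CN 113692, against 67.9 to 73.7 CPM. Csa08g057260.1 was at 2.99 CPM in CN 113660, against 1.37 to 1.60 CPM. RWA3 (Csa06g036850.1) was at 17.5 CPM in CN 113660, against 16.5 to 16.7 CPM, a gap that is small beside the early range.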

How the results depend on the processing

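No paired analysis was possible because the labels give no replicate numbers that the groups share. The count of members called in late against early accessions stayed between 20 and 26 in all settings that kept the 4 late accessions, against 25. The background over all gene models tested was 7.03% with the Cs libraries alone and 9.17% without the filter. It was 13.3% to 14.4% in the other settings. Leaving out each late accession gave 16 to 22 called members, where the background was 7.34% to 12.2% of all gene models tested. Of these members 6 to 11 were higher and 7 to 13 lower. The fewest called and lower were without CN 113660 and the fewest higher without CN 113662. For the 2 latest accessions the count of 11 went to 5 with Cs libraries alone and to between 3 and 11 with leave-one-out, where the lone accession of a pair is assumed to vary like the other groups. For CN 113662 and CN 113692 the count of 6 went to 11 with the Cs share as a covariate, to 11 without libraries that resembled another accession, and to between 2 and 9 with leave-one-out. For the 2 latest the background was 1.29% with the Cs libraries alone. For CN 113662 and CN 113692 it was 5.94% with the covariate and 6.58% without the libraries that resembled another accession. The cause was not tested. The contrast of the pairs went from 0 to 2 with DESeq2, and the early slope from 0 to 2 without the filter. The median log2 fold change of 0.03 became -0.060 without the filter, where 206 members were tested, and ran from 0.001 to 0.05 with leave-one-out. The phosphate translocator and the M50 peptidase gained a call in some settings. Depth limits members of few reads, and the late accessions number 4.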
